A study of Saccharomyces cerevisiae with 8 samples.

Results

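The COS genes encode a family of membrane proteins whose copies lie close to the chromosome ends of budding yeast. The 10 genes described here, COS1 (YNL336W), COS3 (YML132W), COS4 (YFL062W), COS5 (YJR161C), COS6 (YGR295C), COS7 (YDL248W), COS8 (YHL048W), COS9 (YKL219W), COS10 (YNR075W) and COS12 (YGL263W), were taken by their systematic names from a table of 11966 features. The list was chosen by the densities of these genes in all 8 libraries, which were already known. The values of its members are therefore a description, calls for them are given as counts beside the share of all features called, and no p-value is attached to a member. COS2 (YBR302C) is not on the list and is given where it bears on COS3.

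The RNA came from cultures of Saccharomyces cerevisiae BY4741, a haploid laboratory strain. Ribosomal RNA was removed and the strand was kept in sequencing. All cultures were MATa and carried his3Δ1, leu2Δ0, met15Δ0 and ura3Δ0, and grew in YPD at 30 °C. Each of 4 groups held 2 biological replicates. The groups were upf1 with anisomycin (upf1 ANS), upf1 with DMSO (upf1 DMSO), WT with anisomycin (WT ANS) and WT with DMSO (WT DMSO). In upf1 cells the kanMX4 marker stands in the gene of Upf1, and how many clones were used is not given. Anisomycin, which stops ribosomes from joining amino acids, was given at 100 µg/ml for 30 min, and DMSO, its solvent, in the same volume. Upf1 is the helicase that nonsense-mediated decay depends on, a pathway that removes RNAs on which translation ends early. The comparisons thus ask which RNAs accumulate without Upf1 or when ribosomes are stalled.

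Cos proteins span the membrane several times and act on endosomes. They take part in the multivesicular body pathway, in which ubiquitinated proteins of the plasma membrane are sorted into vesicles and sent to the vacuole for breakdown. The gene annotation gives the same role to all 10 members, which form the DUP380 group of a larger superfamily. The DUP240 genes, named after the same repeated domain, are related to them. The 10 genes are single exons, and 9 of them are transcribed away from the nearer chromosome end. COS10 points toward it. On build R64 the coding sequence of COS12 lies at chrVII:2790-3932, that of COS10 at chrXIV:779916-781040, that of COS5 at chrX:742848-743999 and that of COS7 at chrIV:1802-2953.

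The members fall apart into close and distant copies. Among the 7 genes COS1, COS3, COS4, COS5, COS6, COS7 and COS8, coding sequences were 82.7 to 96.2% identical and the 250 bases before the start codon 89.1 to 99.2%. COS9, COS10 and COS12 had coding identities of at most 71.8, 64.2 and 63.6% to any other member. Their upstream bases matched those of other members at 48.8 to 56.5%, and the alignment of such sequences is loose. Windows of 250 bases before to 50 bases after the start codon are printed for 3 genes on RefSeq build R64. COS12 was taken because its density changed most among the members between genotypes in DMSO. COS3 and COS5, whose upstream bases hardly differ, were taken from several equally similar pairs for their difference in that change. Capitals mark every ATG before the start codon and, as the last one in capitals, the start codon itself.

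COS12, chrVII:2540-2839, plus strand: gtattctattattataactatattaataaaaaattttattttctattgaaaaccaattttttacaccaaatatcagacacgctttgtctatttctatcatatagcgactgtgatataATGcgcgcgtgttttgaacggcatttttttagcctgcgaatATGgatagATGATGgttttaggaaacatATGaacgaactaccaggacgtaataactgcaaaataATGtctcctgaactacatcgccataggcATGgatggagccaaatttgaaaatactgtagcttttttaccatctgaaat
COS3, chrXIII:6994-7293, plus strand: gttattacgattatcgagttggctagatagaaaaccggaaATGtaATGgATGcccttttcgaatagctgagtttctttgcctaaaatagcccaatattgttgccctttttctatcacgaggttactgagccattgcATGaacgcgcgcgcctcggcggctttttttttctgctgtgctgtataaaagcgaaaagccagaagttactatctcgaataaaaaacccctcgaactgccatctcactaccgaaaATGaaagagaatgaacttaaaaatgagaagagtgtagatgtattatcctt
COS5, chrX:743950-744249, minus strand: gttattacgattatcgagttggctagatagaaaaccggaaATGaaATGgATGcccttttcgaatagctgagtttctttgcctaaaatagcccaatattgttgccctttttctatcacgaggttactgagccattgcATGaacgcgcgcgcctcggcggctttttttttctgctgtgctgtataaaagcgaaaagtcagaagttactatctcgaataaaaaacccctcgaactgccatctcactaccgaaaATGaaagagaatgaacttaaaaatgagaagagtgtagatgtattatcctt

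COS12 had 5 ATG triplets within the 100 bases before its start codon, on the strand that is transcribed. At least 5 were found in 48 of 5953 protein-coding genes, or 0.806%. The frames opened by 3 of the 5 ended before the start of COS12, and those of the other 2 ran past it in another frame. The 7 close copies had none within 100 bases, COS10 had 1 and COS9 had 2, where 52.0% of protein-coding genes had 1 or more. Where transcription of these genes begins was not analysed here, so a triplet in this window need not lie in the RNA.

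The copies share long stretches of sequence, which limits what a density of one copy means. COS3 and COS2 had identical coding sequences, so that each window of 50 or 100 bases in COS3 was found again elsewhere in R64. For 100-base windows the share found elsewhere was 57.6% in COS5, 50.6% in COS1, 47.9% in COS7, 45.6% in COS4 and 15.5% in COS6. It was 0.191% in COS8 and 0 in COS9, COS10 and COS12. For 50-base windows it was 83.0% in COS5, 72.3% in COS4, 71.1% in COS1 and 66.6% in COS7. There COS6 had 38.3%, COS8 17.4%, COS9 0.851%, and COS10 and COS12 had 0. The deposited features of COS10, COS9 and COS12 are 1019, 173 and 50 nt longer than their coding sequences, and these bases were not searched for copies. How the authors counted reads that match several places is not given in the sources used here. COS3 and COS2 nevertheless had unequal densities of 0.205 ± 0.0205 and 0.105 ± 0.0154 in upf1 ANS (SD, n = 2). In WT DMSO they had 0.0496 ± 0.000902 and 0.0193 ± 0.00950 (SD, n = 2). Values of these 2 genes are uncertain one by one.

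**Figure D1:**
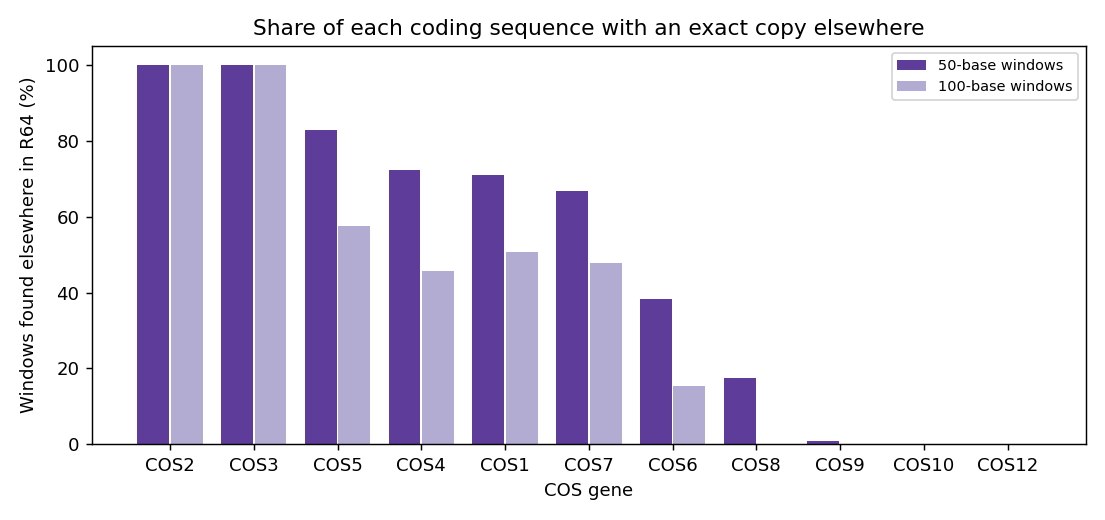
Share of windows of 50 bases (dark bars) and 100 bases (light bars) of each coding sequence that occur elsewhere in build R64 on either strand, in percent, for the 10 listed genes and COS2. COS2 and COS3 stand at 100%, and COS9, COS10 and COS12 at or near 0.

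The deposited value of a feature is a normalized density, which amounts to reads per nucleotide scaled by 1 factor per library. Reads recovered from the densities numbered 6954353 to 11994371 per library. The median density of protein-coding features was 0.554 and 0.497 in upf1 ANS, 0.186 and 0.168 in upf1 DMSO, 0.460 and 0.585 in WT ANS and 0.141 and 0.143 in WT DMSO. Nearly all features thus lay higher under ANS as deposited. Changes are therefore also given on densities rescaled so that protein-coding features keep a common level, called rescaled below. The genotype labels were checked on NAM7, the gene of Upf1, whose density in upf1 was 1.60% of that in WT under ANS and 2.39% in DMSO. In RNA from a whole culture, more cells with an RNA and more of it per cell cannot be told apart.

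COS6 was the highest member in all 4 groups. Its density was 2.13 and 2.10 in upf1 ANS, 0.812 and 0.785 in upf1 DMSO, 1.53 and 1.82 in WT ANS and 0.565 and 0.632 in WT DMSO. Its mean in WT DMSO was 421% of the protein-coding median. COS9 followed in WT DMSO with 0.163 and 0.177, then COS8, COS1, COS7, COS10, COS3, COS5 and COS12. In that order all neighbours but COS3 and COS5 were separated, the 2 libraries of one gene lying above both of the next. COS4 was close to undetected, with 6 and 2 reads in upf1 ANS, 0 and 8 in upf1 DMSO, 5 and 6 in WT ANS and 0 and 2 in WT DMSO. No ratio is read from so few reads, and the fitted changes of COS4 in the plots rest on them.

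The order changed without Upf1. COS12 was ninth of 10 in WT DMSO and second, behind COS6, in upf1 DMSO. It made up 11.9% ± 0.381 of the summed density of the 10 genes in upf1 DMSO and 1.27% ± 0.129 in WT DMSO (SD, n = 2). The share of COS6 was 36.7% ± 0.0298 in upf1 DMSO and 49.4% ± 0.445 in WT DMSO (SD, n = 2).

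**Figure D2:**
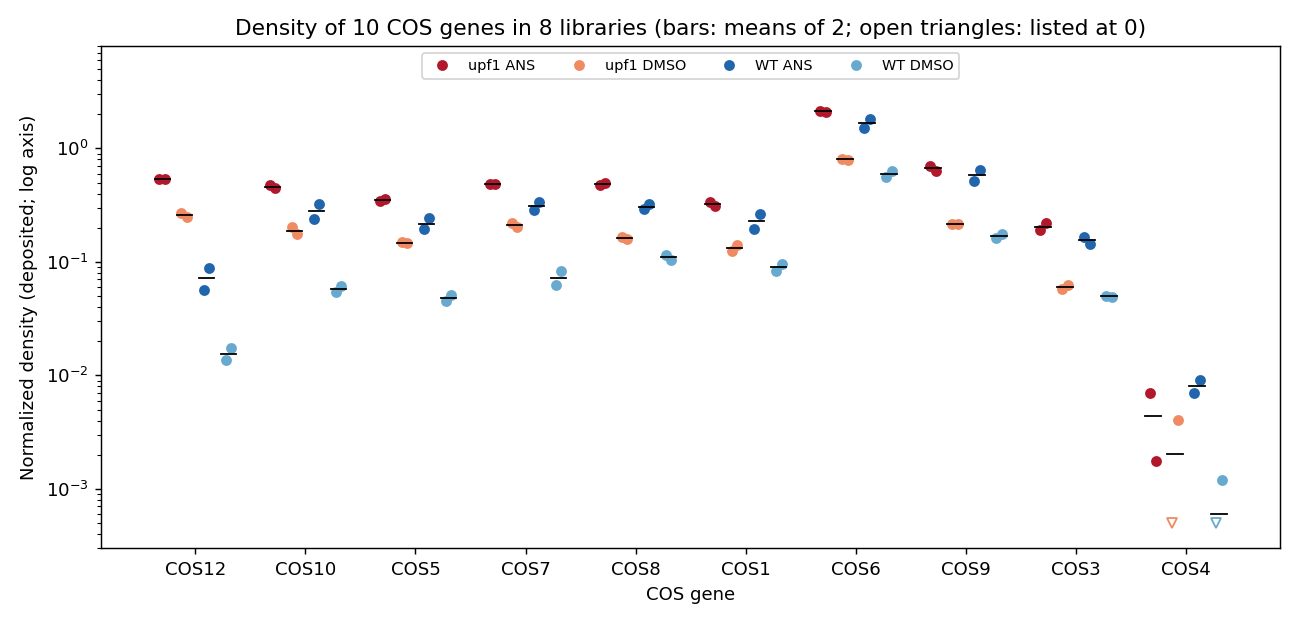
Deposited density (log axis) of the 10 COS genes, with 1 point per library for upf1 ANS, upf1 DMSO, WT ANS and WT DMSO, bars for the mean of 2 libraries and open triangles for a library listed at 0. COS12 lies at 0.250 and 0.270 in upf1 DMSO, far above 0.0136 and 0.0173 in WT DMSO, COS6 is the highest gene in each group and COS4 the lowest.

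The comparison of upf1 with WT in DMSO asks which RNAs are higher when nonsense-mediated decay is impaired. COS12 differed most. Its density was 0.270 and 0.250 in upf1 DMSO (471 and 513 reads), against 0.0136 and 0.0173 in WT DMSO (17 and 30 reads). The groups were far apart, and the ratio of their means was 16.8, or 14.1 after rescaling. The fitted log2 change was 3.81 ± 0.23 (SE) as deposited and 3.68 ± 0.15 rescaled. On the rescaled densities this was the seventh largest rise among 5880 protein-coding features tested.

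COS10, COS5 and COS7 formed a second tier with much the same change. COS10 had 0.201 and 0.175 in upf1 DMSO, against 0.0543 and 0.0608 in WT DMSO. COS5 had 0.149 and 0.146 in upf1 DMSO, against 0.0456 and 0.0515 in WT DMSO, and COS7 had 0.218 and 0.203 against 0.0630 and 0.0826. The groups did not overlap for any of these 3 genes. Their rescaled log2 changes were 1.43 ± 0.09, 1.32 ± 0.11 and 1.27 ± 0.13 (SE). The density of COS10 covers 1019 nt beyond its coding sequence, and where these lie is not given. COS5 and COS7 are each other's closest copies with 95.6% coding identity. COS10 is a distant copy, with coding identities of 63.5% to COS5 and 63.2% to COS7. Reads that match both COS5 and COS7 could make their densities alike, and their part in the result was not tested.

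The other 6 members were not called on the rescaled densities. Their log2 changes were 0.32 ± 0.11 for COS8, 0.31 ± 0.12 for COS1, 0.17 ± 0.08 for COS6, 0.10 ± 0.08 for COS9 and 0.03 ± 0.20 for COS3 (SE). COS4 had at most 8 reads per library. COS3 had 0.0583 and 0.0627 in upf1 DMSO, against 0.0503 and 0.0490 in WT DMSO. Its upstream 250 bases are 99.2% identical to those of COS5, printed above. As deposited the mean density in upf1 DMSO was 3.04 times that in WT DMSO for COS5 and 1.22 times for COS3. After rescaling the ratios were 2.56 and 1.03. Reads within the coding sequence of COS3 cannot be told from those of COS2. The difference in change between COS3 and COS5 was not tested, since both were chosen with these values known.

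Of the 10 members, 6 were called higher as deposited (COS5, COS6, COS7, COS8, COS10 and COS12), and none lower. Among all 11579 features tested by limma at a Benjamini-Hochberg adjusted p below 0.05, 31.6% were called higher and 0.613% lower. On rescaled densities 4 members (COS5, COS7, COS10 and COS12) were called higher and none lower, against 30.9% higher and 16.4% lower over all features. The median rescaled change of the 10 members was 0.37, beside 0.14 over all features and -0.13 over protein-coding features. The 0.37 counts COS4, without which the middle member is COS8 with 0.32. Of protein-coding features 21.7% were called higher and 29.6% lower on rescaled densities. The summed density of the 10 genes was 2.22 and 2.14 in upf1 DMSO, against 1.15 and 1.27 in WT DMSO, a ratio of geometric means of 1.80 and of 1.51 after rescaling. As deposited both upf1 libraries lay above both WT libraries in 9 members and below them in none, against 54.5% and 13.0% of all features. After rescaling it was 7 and none, against 43.7% and 30.3%. The sum does not depend on how reads are split among the listed copies.

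Under ANS the same comparison of genotypes gave smaller differences for the second tier. COS12 had 0.537 in both upf1 ANS libraries, against 0.0561 and 0.0892 in WT ANS. The ratio of means was 7.39, and the log2 change was 2.86 ± 0.23 as deposited and 2.79 ± 0.15 rescaled (SE), the third largest rise among 5880 protein-coding features. COS10 had 0.475 and 0.448 in upf1 ANS, against 0.241 and 0.325 in WT ANS. COS5 had 0.346 and 0.359 in upf1 ANS, against 0.194 and 0.241 in WT ANS, and COS7 0.483 and 0.481 against 0.289 and 0.335. The groups were separated for all 3 genes. Their rescaled log2 changes were 0.68 ± 0.09, 0.66 ± 0.11 and 0.59 ± 0.13 (SE). COS8 lay close to them, with 0.474 and 0.491 in upf1 ANS, against 0.295 and 0.321 in WT ANS, and a rescaled change of 0.61 ± 0.11.

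As deposited only COS12 of the 10 was called higher under ANS, and none lower, where 2.69% of all features were called higher and 0.216% lower. On rescaled densities 5 members (COS5, COS7, COS8, COS10 and COS12) were called higher and none lower, against 5.39% higher and 1.92% lower over all features. The median rescaled change was 0.53 for the members, 0.08 over all features and -0.04 over protein-coding features. The 0.53 counts COS4, without which the middle member is COS7 with 0.59. Of protein-coding features 4.98% were called higher and 3.61% lower. The DMSO libraries enter this comparison only through the spread that the groups share. Without WT ANS replicate 2, whose protein-coding median lay above that of replicate 1, 6 members were called higher as deposited. On rescaled densities 1 was called without any 1 of the 4 ANS libraries and 3 without either upf1 DMSO library. As deposited both upf1 libraries lay above both WT libraries in 8 members and below them in COS4, against 34.7% and 9.47% of all features. For COS4 this rests on 6 and 2 reads in upf1 ANS against 5 and 6 in WT ANS. After rescaling it was again 8 and 1, against 37.0% and 21.3%.

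**Figure D3:**
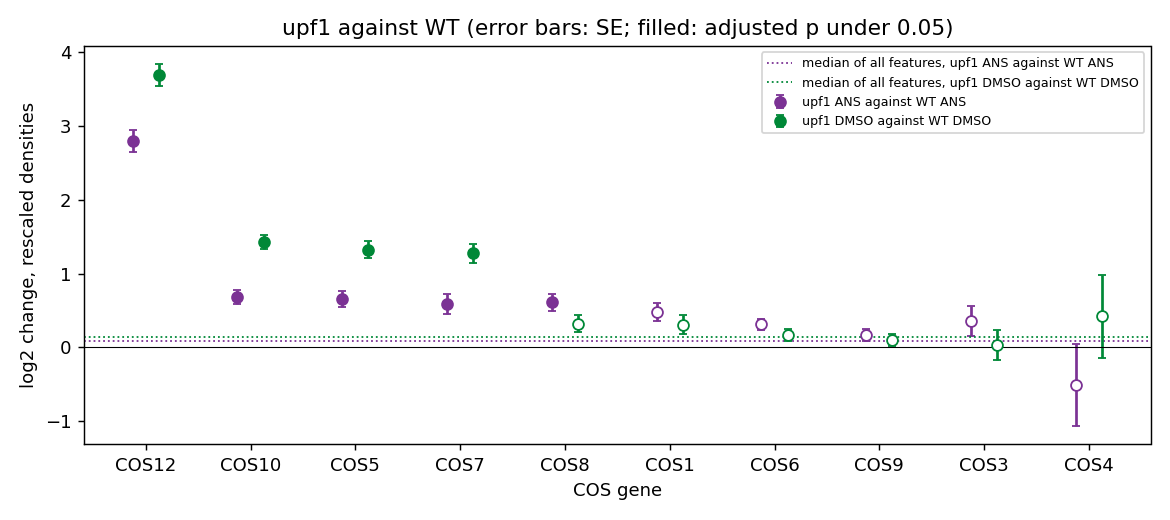
Fitted log2 change of upf1 against WT on rescaled densities for each COS gene, under ANS (purple) and in DMSO (green), with SE bars, filled points where the adjusted p was under 0.05, and dotted lines at the median of all features. COS12 stands highest in both, with 2.79 under ANS and 3.68 in DMSO, followed in DMSO by COS10, COS5 and COS7 between 1.27 and 1.43.

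ANS against DMSO in WT asks which RNAs accumulate when ribosomes stall in cells with Upf1. As deposited all 10 members were called higher, as were 90.2% of all features, and none lower (0.345% over all features). The counts of members here include COS4, which had 5 and 6 reads in WT ANS and 0 and 2 in WT DMSO. Both ANS libraries lay above both DMSO libraries in all 10, and below in none, against 93.0% and 0.717% of all features. After rescaling they lay above in 6 and below in 3, against 50% and 26.4%. As deposited the median change of the members was 1.67, near the 1.77 of all features and the 1.72 of protein-coding features. Their summed density was 3.49 and 4.20 in WT ANS, against 1.15 and 1.27 in WT DMSO. On rescaled densities, of the 10 members, COS5, COS7, COS10 and COS12 were called higher and COS1 and COS6 lower, against 35.8% higher and 19.3% lower over all features, shares close to those of the members. The rescaled summed density was 2.29 and 2.17 in WT ANS, against 2.19 and 2.40 in WT DMSO, so that the groups overlapped.

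Rescaled densities of COS10 were 0.158 and 0.168 in WT ANS, against 0.103 and 0.115 in WT DMSO, a log2 change of 0.57 ± 0.09 (SE). COS12 had 0.0368 and 0.0460 in WT ANS, against 0.0259 and 0.0328 in WT DMSO, and changed by 0.45 ± 0.15. COS5 changed by 0.44 ± 0.11 and COS7 by 0.40 ± 0.13. Each of these 4 genes was thus higher in both ANS libraries than in both DMSO libraries. COS1 had 0.128 and 0.137 in WT ANS, against 0.158 and 0.182 in WT DMSO, a log2 change of -0.35 ± 0.12. COS6 changed by -0.22 ± 0.08 and COS8 by -0.21 ± 0.11, the last not called. COS1 and COS6 rose as deposited and fell only after rescaling. COS12, COS10, COS5 and COS7 had changes of 3.68, 1.43, 1.32 and 1.27 in upf1 DMSO against WT DMSO, and both comparisons use the WT DMSO libraries. Without any 1 library the rescaled changes in WT ANS against WT DMSO kept their sign in the 6 called members. They ran over 0.49 to 0.64 for COS10, 0.30 to 0.61 for COS12 and 0.36 to 0.52 for COS5. The ranges were 0.21 to 0.58 for COS7, -0.45 to -0.25 for COS1 and -0.30 to -0.15 for COS6. The number of calls varied, and the upf1 libraries enter this comparison only through the spread that the groups share. Without WT DMSO replicate 1 only 1 member was called higher, and without any 1 of the WT ANS, upf1 DMSO or upf1 ANS libraries 2 were. Called lower were 0 without WT DMSO replicate 2 or any 1 ANS library, and 1 without either upf1 DMSO library.

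In upf1 cells ANS raised 9 of the 10 members as deposited, all but COS4, and lowered none, against 88.7% and 0.268% of all features. On rescaled densities none of the 10 was called higher or lower by limma, against 17.4% higher and 18.3% lower over all features. COS12 had rescaled densities of 0.291 and 0.321 in upf1 ANS, against 0.413 and 0.416 in upf1 DMSO, with a log2 change of -0.44 ± 0.15 (SE). COS10, COS5 and COS7 had -0.19 ± 0.09, -0.23 ± 0.11 and -0.29 ± 0.13. Both ANS libraries lay above both DMSO libraries in 9 members as deposited and below in none, against 94.9% and 0.725% of all features. After rescaling they lay above in 1 and below in 5, against 37.2% and 35.7%. In these 4 genes both ANS libraries lay below both DMSO libraries, although none passed the threshold. The WT libraries enter this comparison only through the spread that the groups share. Without either WT DMSO library 2 members were called lower, and 1 without WT ANS replicate 1.

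**Figure D4:**
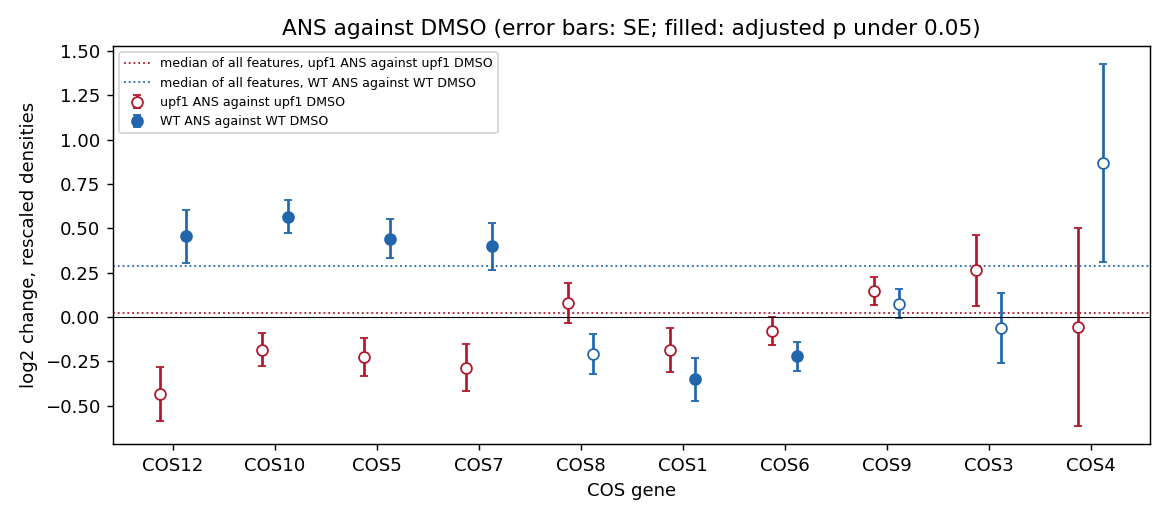
Fitted log2 change of ANS against DMSO on rescaled densities for each COS gene, in upf1 (red) and in WT (blue), with SE bars, filled points where the adjusted p was under 0.05, and dotted lines at the median of all features. COS12, COS10, COS5 and COS7 lie below 0 in upf1 and above 0 in WT, and COS1 and COS6 lie below 0 in both.

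The interaction, the ANS change in upf1 minus that in WT, measures whether the effect of ANS differs between genotypes. As deposited no member was called in either direction, where 8.36% of all features were called lower and 0.19% higher. On rescaled densities COS12 (-0.89 ± 0.21, SE), COS10 (-0.75 ± 0.13) and COS5 (-0.67 ± 0.15) were called lower and none higher, against 10.4% lower and 0.717% higher over all features. Without the COS genes, 50 of 173 protein-coding features tested within 20 kb of an end were called lower (28.9%) and 3 higher, a share close to that of the members. COS7 had -0.68 ± 0.19 and was not called. Without WT DMSO replicate 1 or WT ANS replicate 2 only 1 member was called lower, and without any 1 upf1 library 0. As deposited 1 was called without WT DMSO replicate 2 and 4 without WT ANS replicate 1. For the other 5 members above a few reads the values ran from 0.07 for COS9 to 0.33 for COS3. The median was -0.30 for the members, -0.08 over all features and 0.06 over protein-coding features. That of the members falls in the gap between COS5 (-0.67) and COS9 (0.07) and counts COS4. Without COS4 the middle member is COS9, close to the protein-coding median.

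Position on the chromosome was set beside these changes. COS5, COS7, COS12 and COS10 lie 1752, 1801, 2789 and 3293 bases from the chromosome end. The other 6 members lie 6400 to 14484 bases from it. COS2, identical to COS3 in coding sequence, lies at 1705 bases and had a rescaled change of 0.75 ± 0.31 (SE) in upf1 against WT in DMSO (adjusted p = 0.0872, limma). As deposited its change was 0.93 ± 0.28 (SE, adjusted p = 0.0309, limma). Since the coding sequences of COS2 and COS3 are identical, their densities cannot be set apart by position. The split by distance was seen after the values were known and has no test. Other genes near the ends did not show it. Without the COS genes, 14 of 23 protein-coding features within 5 kb of an end were called higher in upf1 DMSO, with a median of 1.44. Of those between 5 and 10 kb 28 of 42 were called higher, with a median of 1.64. Between 10 and 20 kb it was 61 of 108, with a median of 0.90, and beyond 20 kb 1167 of 5677, with a median of -0.15. The medians of mean density were 0.0400, 0.0583, 0.157 and 0.361 in the same order, so that features near the ends were also sparser. The 5 members between 5 and 10 kb had a median of 0.31, beside 1.64 for the other features there.

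**Figure D5:**
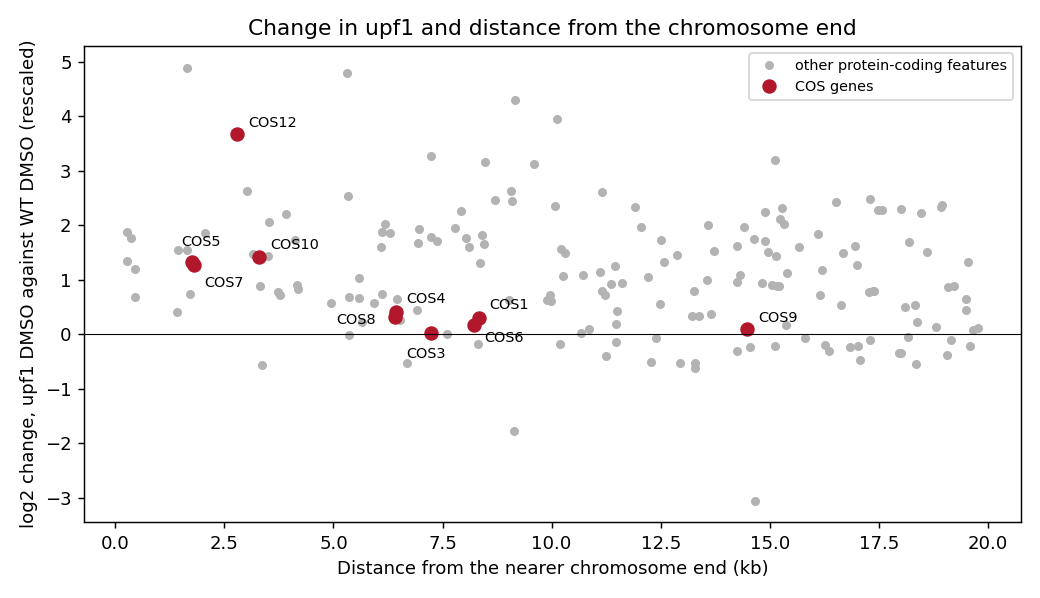
Fitted log2 change of upf1 DMSO against WT DMSO on rescaled densities by distance in kb from the nearer chromosome end, for COS genes (red, labelled) and other protein-coding features tested within 20 kb (grey). COS5, COS7, COS10 and COS12 lie within 3.29 kb of an end and above 1.2, and the other 6 COS genes lie beyond 6 kb and below 0.5.

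The genes next to the members differed among themselves. YGL262W, on the same strand 1379 bases downstream of COS12, was listed at 0 in both WT DMSO libraries and had densities of 0.0545 and 0.0595 in upf1 DMSO (96 reads in all). PAU6, a seripauperin gene on the same strand 877 bases beyond COS10, rose by 1.87 ± 0.35 rescaled (SE, adjusted p = 0.00467, limma). The deposited feature of COS10 is 2144 nt long where the coding sequence has 1125, the widest gap among the members, and where its ends lie is not given. Whether it takes in part of PAU6 is thus not known, and a part of PAU6 in the change of COS10 was not tested. AIF1, on the other side of COS10 and the opposite strand, rose by 1.03 ± 0.07 (SE, adjusted p = 5.72e-05, limma). Next to COS9 the ferric reductase gene FRE2 rose by 2.45 ± 0.15 (adjusted p = 3.31e-05, limma). MPH3 beside COS5 and MPH2 beside COS7, maltose permease genes, had mean densities of 0.00521 and 0.00211, and MPH2 did not pass the filter. MPH3 changed by 0.58 ± 0.28 (SE) and was not called. SRY1, on the other side of COS9, rose by 0.81 ± 0.24 (adjusted p = 0.0291, limma). ARN2 beside COS8 rose by 1.32 ± 0.10 (adjusted p = 6.19e-05, limma), and PAU12 beside COS6 by 1.08 ± 0.32 (adjusted p = 0.0291, limma). Neighbours higher in upf1 DMSO were thus found beside COS10 and COS12, which were called on rescaled densities. They were also found beside COS6, COS8 and COS9, which were not called. Tested neighbours that were not called included MPH3, beside the called member COS5. Others were DDI2 beside COS1 (1.26 ± 0.48), YFL064C beside COS4 (0.89 ± 0.37) and YML133C beside COS3 (0.68 ± 0.30, SE). Not every tested neighbour rose, since YML131W beside COS3 had a rescaled change of -0.18 ± 0.10 (SE). Without the COS genes, 103 of 173 protein-coding features tested within 20 kb of an end were called higher in this comparison (59.5%). A link between the changes of members and neighbours was not tested.

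Related and repeated gene families were read beside the COS genes in upf1 against WT in DMSO on rescaled densities. Of 10 DUP240 genes 7 were called higher and 1 lower, with a median of 0.66, beside 21.7% higher, 29.6% lower and a median of -0.13 over all protein-coding features tested. DFP1 (YAR023C), a putative membrane protein, had 0.492 and 0.475 in upf1 DMSO, against 0.0513 and 0.0498 in WT DMSO, and rose by 2.96 ± 0.15 (SE, adjusted p = 2.09e-05, limma). DFP3 rose by 2.03 ± 0.16. Of 20 seripauperin (PAU) genes with densities, 16 passed the filter, 10 were called higher and none lower, with a median of 1.71. PAU7 rose by 2.41 ± 0.16 and PAU17 by 1.99 ± 0.10. In WT ANS against WT DMSO 8 DUP240 genes were higher and 1 lower, with a median of 0.82, against 33.6% and 29.9% of protein-coding features. There PRM8 rose by 0.86 ± 0.07 and KTD1 by 0.95 ± 0.08. Of the PAU genes 8 were higher and 0 lower there, with a median of 1.05, where PAU17 rose by 1.25 ± 0.10 and PAU5 by 3.05 ± 0.41. In upf1 ANS against WT ANS 1 DUP240 gene and 1 PAU gene were called higher and none lower, against 4.98% and 3.61% of protein-coding features. PAU genes are near-identical copies, and their values one by one are uncertain. None of the 8 Y′ helicase genes (YRF1-1 to YRF1-8) passed the filter, with at most 24 reads in a library.

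Partners of the Cos proteins in sorting were counted in the same way. The 21 genes are those of the ESCRT complexes, which bend endosomal membranes into vesicles, of factors acting with them, and of the ubiquitin enzymes Rsp5 and Doa4. In upf1 DMSO against WT DMSO 2 were called higher and 3 lower (rescaled, median -0.05), against 21.7% and 29.6% of protein-coding features. As deposited 1 was higher and 0 lower, against 23.0% and 0.765% of protein-coding features. SNF8, an ESCRT-II subunit, rose by 0.67 ± 0.13 (SE, adjusted p = 0.00559, limma), and HSE1, which recognises ubiquitinated cargo, fell by 0.31 on the log2 scale, against a deposited change of -0.07 that was not called. In WT ANS against WT DMSO 6 were higher and 3 lower, with a median of 0.08, against 33.6% and 29.9% of protein-coding features and a median of 0.07. As deposited all 21 were higher there, with a median of 1.76, beside 94.9% of protein-coding features. DOA4, the ubiquitin hydrolase of this pathway, rose by 0.78 ± 0.09 and RSP5 changed by -0.65 ± 0.08 (rescaled), having risen by 1.05 as deposited.

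Of 16 genes of silencing at telomeres 5 were called higher and 4 lower in upf1 DMSO against WT DMSO on rescaled densities, with a median of -0.17, against 21.7% and 29.6% of protein-coding features. As deposited 5 were higher and 0 lower, with a median of 0.07, against 23.0% and 0.765% of protein-coding features. RIF2, which binds Rap1 at telomeres, had 0.0957 and 0.0903 in upf1 DMSO, against 0.0350 and 0.0311 in WT DMSO, and rose by 1.20 ± 0.11 (SE, adjusted p = 1.48e-04, limma). The acetyltransferase gene SAS2 rose by 0.83 ± 0.09. In WT ANS against WT DMSO 7 were higher and 1 lower, with a median of 0.27, against 33.6% and 29.9% of protein-coding features. SIR1 rose by 1.39 ± 0.13 and RIF2 by 0.87 ± 0.11.

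The average profile of the 10 members over the 8 libraries, each centred on its own mean of log2 rescaled density, was set beside those of the 2938 protein-coding genes with a mean density at or above the median, and the 5 most like it were taken. These were DFP1 (r = 0.98), YHR078W (r = 0.98), the recombinational repair gene RAD57 (r = 0.97), YGL193C (r = 0.97) and CSS2 (r = 0.97). The same libraries chose the members, and the points are 8 libraries in 4 groups, so the correlation follows the group means. Likeness does not fix size, since DFP1 rose by 2.96 and YHR078W by 0.43 in upf1 DMSO against WT DMSO (rescaled log2).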

How the data were processed

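Stranded total RNA-seq covered 8 libraries in 4 groups of 2 biological replicates. The submitters' processing notes name build R64, DESeq2, featureCounts 2.0.0, HISAT2 2.2.0 and Trim Galore, without the role of each. The values deposited by the authors are normalized densities (signal), and their scaling basis is not given. The 4 deposited group means equalled the mean of their replicates to within 1e-06.

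A single length of 20 to 20000 nt turned the densities of each feature into whole reads in all libraries, to within 1e-05 reads, for 100.0% of features. These reads give depth only. Counts do not show how many molecules were sampled. Log2 densities, after adding a pseudocount of 0.003397 (percentile 5 of the densities above 0), were fitted with limma 3.58.1 under R 4.3.3. A pseudocount understates changes of low genes. Features whose mean density reached the pseudocount entered the fit (11579, with all 10 members). The model had 1 mean per group over 8 libraries and a variance trend. P-values were adjusted by Benjamini-Hochberg over all features, with a threshold of 0.05, and the fit was tested on simulated data. Rescaling divided each library by the median ratio of its protein-coding features to their geometric mean. Coding and upstream sequences came from the RefSeq R64 genome and were aligned globally with Biopython 1.88, identity being matches over alignment columns.

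The members, gene lists and tests were chosen with earlier results of these data known. All members are named and, per list, the 2 genes with the smallest adjusted p in upf1 DMSO against WT DMSO and in WT ANS against WT DMSO. Neighbouring genes were named after their values were seen. Printed windows are those of the member with the largest change and of 1 of 5 equally similar pairs, taken for its difference in change. Of 24 PAU genes 4 were not analysed here, and no protein sequence was used. Alternatives were other pseudocounts, no filter, rescaling, no variance trend, a replicate block and leaving out each library. Leaving out libraries on rescaled densities was chosen after seeing the data.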

Additional observations from a re-analysis of the deposited data

Results flagged for a closer look

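On rescaled densities the interaction term of limma, which sets the effect of ANS in upf1 against that in WT, was called lower for 3 of 10 members, where 10.4% of all features were. The share was 28.9% of the 173 other protein-coding features tested within 20 kb of an end, close to that of the members. Of the DUP240 genes 5 of 10 were called lower, and of the PAU genes 4 of 16. Without any 1 upf1 library 0 members were called. The ANS change in upf1 minus that in WT was -0.89 for COS12, -0.751 for COS10 and -0.667 for COS5 (log2). As deposited the same terms were -0.95, -0.94 and -0.85 and were not called. COS7, with -0.68 rescaled, was not called on either scale. These members were chosen with the values known, and the comparisons share all 8 libraries.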

How the results depend on the processing

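Rescaling to protein-coding features moved the calls most. It gave 5 members higher in upf1 ANS against WT ANS, 4 higher and 2 lower in WT ANS against WT DMSO, 0 higher in upf1 ANS against upf1 DMSO and 3 lower in the interaction. It turned the direction in WT ANS against WT DMSO for COS1 (-0.35), COS3 (-0.063), COS6 (-0.22) and COS8 (-0.21). In upf1 ANS against upf1 DMSO it did so for COS1 (-0.19), COS5 (-0.23), COS6 (-0.081), COS7 (-0.29), COS10 (-0.19) and COS12 (-0.44), and for COS4, not called on either scale (-0.058, against 0.54 as deposited). These turns follow from dividing out the common rise under ANS. A pseudocount 5 times larger gave 4 members higher in upf1 ANS against WT ANS, and one 5 times smaller gave 1 lower in the interaction; the cause was not tested.

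The log2 change of the summed density was 0.85 in upf1 DMSO against WT DMSO and -0.29 in the interaction as deposited. After rescaling it was 0.60 in upf1 DMSO against WT DMSO, -0.042 in WT ANS against WT DMSO, -0.12 in upf1 ANS against upf1 DMSO and -0.073 in the interaction. On deposited densities, taking the mean of log2 densities, which weights members equally, gave 1.10 in upf1 DMSO against WT DMSO and -0.46 in the interaction.

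Leaving out 1 library gave, as deposited, 4 to 8 members higher in upf1 DMSO against WT DMSO, 1 to 6 in upf1 ANS against WT ANS, 9 to 10 in WT ANS against WT DMSO, 9 in upf1 ANS against upf1 DMSO and 0 to 4 lower in the interaction. On rescaled densities the ranges were 4 to 5, 1 to 5, 1 to 4 higher with 0 to 2 lower, 0 to 2 lower and 0 to 4 lower. For the 5 comparisons in the same order, the log2 change of the deposited summed density ranged over 0.78 to 0.92, 0.42 to 0.69, 1.53 to 1.80, 1.35 to 1.39 and -0.42 to -0.16. A group left with 1 library is assumed to vary like the others.

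With the replicate number as a block 5 members were called higher in upf1 DMSO against WT DMSO, where 6 were called without it, and the other counts of members did not move. Features called numbered 3641 with the block and 3734 without it in that comparison. Same-numbered libraries of different groups deviated together with correlations of -0.045 to 0.17, so the number does not pair them. Depth limits COS4, with at most 8 reads in a library, and COS12 in WT DMSO, with 17 and 30.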
